A study of Mus musculus with 6 samples.

Results

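The 10 genes described here make up the core of the circadian clock, the daily oscillator that runs in most mammalian cells, in the ovaries of mice with and without selenium-binding protein 1. They are the activators Arntl and Clock, the repressors Cry1, Cry2, Per1, Per2 and Per3, the nuclear receptors Nr1d1 and Nr1d2, and the output factor Dbp. Members were taken as every probe whose gene name on the array is one of these, which gave 12 probes for the 10 genes, among 24415 probes for 19412 genes that were bright enough to test. The list was chosen by a measured value in part: Cry1 had stood out in the comparison of these same arrays, and the other 9 genes are textbook members of the clock added around it. The values of Cry1 between genotypes are therefore a description, with no test. RNA came from ovaries of female C57BL/6J mice aged 20 weeks, 3 labelled SeBP1 knockout and 3 labelled wild type. Each was read on its own single-colour (Cy3) Agilent array, and the question posed was how deletion of the gene affects expression in the ovary. Separate animals are not stated in the labels, and the spread behind each p-value is that between arrays, which may be technical. The labels give neither the part of the gene that was deleted, nor the hour at which ovaries were taken, nor the stage of the estrous cycle.

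In the clock, Arntl (also called Bmal1) and Clock form a pair of transcription factors that bind E-boxes and switch on the Per, Cry, Nr1d and Dbp genes. PER and CRY proteins return to the nucleus and repress that pair, which closes the main loop. NR1D1 and NR1D2 (the REV-ERB receptors) repress Arntl through ROR elements, where the ROR receptors activate it, and DBP acts on D-boxes, some of them in Per genes. In mouse tissues the transcripts peak in a fixed daily order, with Nr1d1 in the light phase, Dbp, Per1 and Per3 later in it, Per2 around dusk, Cry1 late in the night and Arntl close to the next dawn. Clock genes are known to cycle in granulosa, theca and luteal cells of the ovary.

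The array reads each transcript through a probe of 60 bases. The 3 probes of the cryptochromes are shown because both genes lay higher in all knockouts than in any wild type. In addition, the array design assigns the Cry2 probes to different transcripts. The Cry1 probe lies on the minus strand at chr10:84594731-84594790 (mm9), and the Cry2 probes at chr2:92243807-92243866, the brighter one, and chr2:92251417-92251476, the dimmer one, both on the minus strand. An exon annotation of that build was not used here, so their place in the transcripts was not worked out.
Cry1 probe: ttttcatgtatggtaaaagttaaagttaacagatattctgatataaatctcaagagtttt
Cry2 brighter probe: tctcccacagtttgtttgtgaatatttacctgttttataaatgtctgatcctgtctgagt
Cry2 dimmer probe: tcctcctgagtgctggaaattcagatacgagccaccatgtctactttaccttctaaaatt

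The elements through which the loop is wired were looked for in RefSeq promoter windows (GRCm38.p6) that run from 250 bases before to 50 bases after each start site. Windows were found for 9 of the 10 genes, 13 windows in all, and Per2 had none. The letters searched, on both strands, were CACGTG for the E-box, CACGTT for a variant E-box and TTATGTAA or TTACGTAA for the D-box. TAGGTCA or TGGGTCA was searched for the ROR element and TGACGTCA for the cAMP response element. TGACG was searched for the short core of the latter, which the full element contains. An E-box stood in 2 of the 13 windows, those of Cry1 and the upstream start of Per1, and in 7.15% of all 32851 windows of the same length. The variant E-box stood in 3, those of Cry1, Cry2 and Nr1d1, and in 4.68% of all windows. A D-box stood in 1 clock window, that of Per3, which held 2 copies, and in 1.06% of all windows. The ROR element stood in 1, the downstream start of Arntl, and in 6.45% of all windows, while the cAMP response element stood in 0 of 13 and in 1.79% of all windows. The short core stood in 4 of 13, those of Cry1, Cry2 and both starts of Per1, and in 20.8% of all windows. A match is a run of letters and not a site known to be bound in the ovary. The 4 windows below show the E-box, the variant E-box, the D-box and the ROR element in capitals. They lie at chr10:85185005-85185304 on the minus strand for Cry1, chr11:69098699-69098998 on the plus strand for Per1, chr4:151044616-151044915 on the minus strand for Per3 and chr7:113207261-113207560 on the plus strand for Arntl.
Cry1: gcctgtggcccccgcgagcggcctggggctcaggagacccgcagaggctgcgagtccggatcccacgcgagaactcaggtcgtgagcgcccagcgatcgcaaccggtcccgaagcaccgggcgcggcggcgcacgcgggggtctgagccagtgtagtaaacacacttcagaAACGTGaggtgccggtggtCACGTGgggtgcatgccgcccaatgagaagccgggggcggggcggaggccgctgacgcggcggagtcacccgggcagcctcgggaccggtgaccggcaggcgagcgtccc
Per1: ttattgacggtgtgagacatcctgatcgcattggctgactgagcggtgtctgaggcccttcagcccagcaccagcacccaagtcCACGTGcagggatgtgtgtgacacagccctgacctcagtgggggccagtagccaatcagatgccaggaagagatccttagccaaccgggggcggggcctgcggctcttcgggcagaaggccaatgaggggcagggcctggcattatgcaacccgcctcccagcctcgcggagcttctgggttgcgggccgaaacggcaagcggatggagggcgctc
Per3: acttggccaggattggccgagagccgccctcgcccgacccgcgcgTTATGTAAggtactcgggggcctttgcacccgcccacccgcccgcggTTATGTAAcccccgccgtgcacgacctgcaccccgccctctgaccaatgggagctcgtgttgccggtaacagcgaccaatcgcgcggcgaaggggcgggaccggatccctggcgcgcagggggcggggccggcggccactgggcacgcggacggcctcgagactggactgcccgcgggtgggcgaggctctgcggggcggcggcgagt
Arntl: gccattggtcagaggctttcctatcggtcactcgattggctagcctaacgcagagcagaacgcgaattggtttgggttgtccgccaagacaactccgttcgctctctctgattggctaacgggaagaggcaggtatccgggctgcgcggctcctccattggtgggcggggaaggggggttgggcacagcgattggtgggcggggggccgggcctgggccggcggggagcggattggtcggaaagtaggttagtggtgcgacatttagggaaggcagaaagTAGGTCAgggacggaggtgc

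All values are log2 of the processed signal minus the 75th percentile of that signal on the same array, so 0 is the 75th percentile. Levels were compared between arrays, within a probe or as a mean or sum over the same probes. Such sums weigh the brightest probes most. Selenbp1, the deleted gene, was at -0.11, 0.02 and -0.37 in knockout ovaries 1 to 3, against 2.68, 2.53 and 2.59 in wild-type ovaries 1 to 3, so the log2 difference was -2.75 (standard error, SE, 0.13) and limma gave an adjusted p = 0.0104. Its probe may lie outside the deleted part, and the difference no longer passed the adjusted threshold without knockout ovary 1 or 3 or without wild-type ovary 1 or 2. The share of spots well above background ran from 63.9% to 69.3% on knockout arrays and from 61.6% to 67.8% on wild-type arrays. All 7 granulosa markers and all 7 oocyte markers looked for were well above background on all 6 arrays. The arrays lay on 2 slides, with all 3 knockouts and wild-type ovary 3 on slide 2 and wild-type ovaries 1 and 2 on slide 1. Wild-type ovary 3 is thus the only wild type that shares a slide with the knockouts, and repeated spots of a probe varied most on its array, with a median coefficient of variation of 5.30% over probes spotted 5 or more times and brighter than the median spot, against 1.87% to 1.96% on knockout arrays and 2.00% to 2.45% on the other wild types.

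All 12 clock probes were well above background on all 6 arrays. With 1 probe for each gene, 6 of the 10 genes had a higher mean in the knockout (Cry1, Cry2, Per1, Per2, Per3 and Nr1d2) and 4 a lower one (Arntl, Clock, Nr1d1 and Dbp). In 5 genes the genotypes did not overlap: Cry1, Cry2 and Per1 lay higher in all 3 knockouts, and Clock and Nr1d1 lower. Cry1 had stood out in this comparison, so its place among them follows from how it was chosen. Over all probes tested, 3.94% had all knockouts above all wild types and 4.64% had all knockouts below. None of the 9 genes besides Cry1 passed a limma adjusted p of 0.05 over all probes, where 0.0041% of probes did. At an unadjusted limma p under 0.05 stood 4 of these 9 genes (Cry2, Per1, Clock and Nr1d1), against 3.95% of all probes. Every probe of the 9 genes had a limma adjusted p of 1.00. Because the list was drawn up with these results known, nothing is read from the set of these counts. The median log2 difference over the 10 genes was 0.13, beside -0.017 over all 19412 genes.

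**Figure D1:**
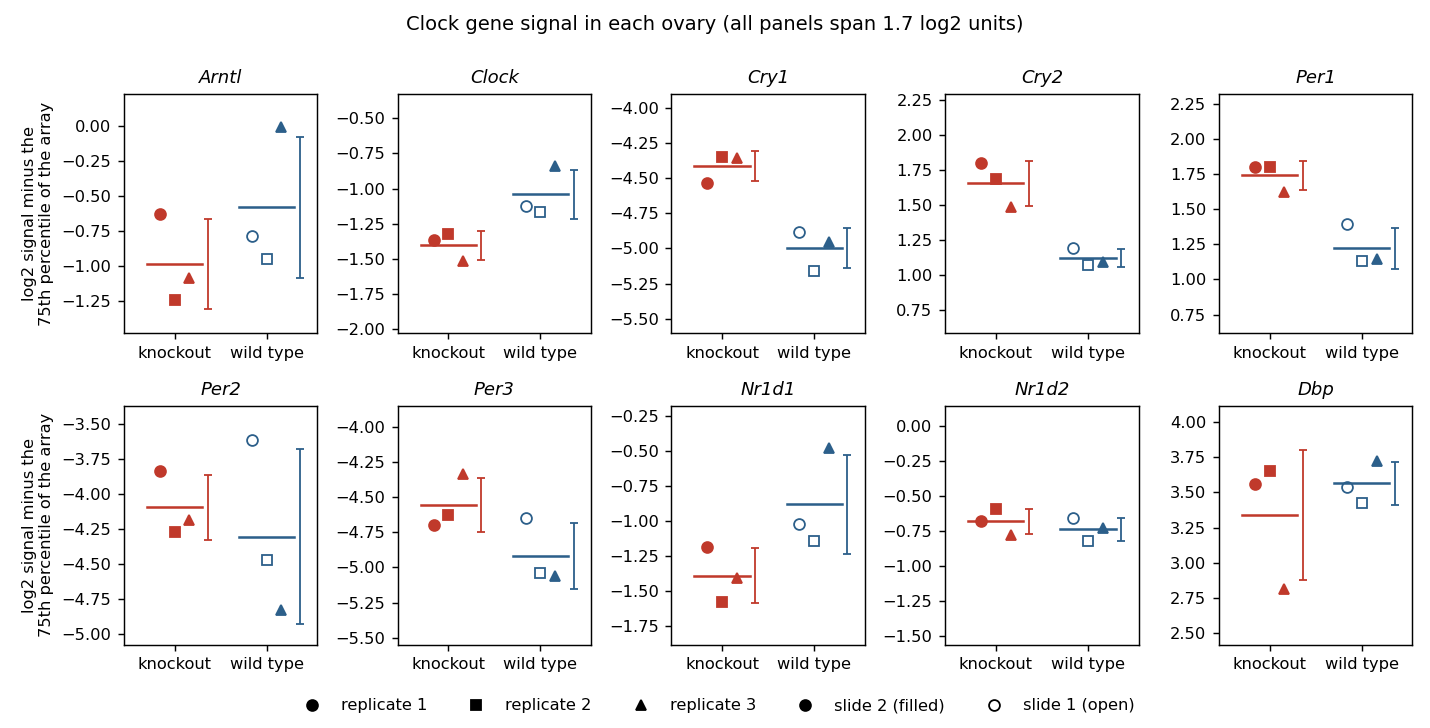
Log2 signal of each clock gene, minus the 75th percentile of the array, in the 3 knockout ovaries (red, left) and the 3 wild-type ovaries (blue, right), with the mean (line) and SD (bar beside it). The shape marks the replicate and open symbols mark slide 1, and all panels span the same log2 range. Cry1, Cry2 and Per1 lay above and Clock and Nr1d1 below wild type without overlap, while Arntl and Nr1d1 were highest in wild-type ovary 3.

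Cry1, which encodes a repressor of the Arntl and Clock pair, was at -4.54, -4.35 and -4.36 in knockout ovaries 1 to 3, against -4.89, -5.16 and -4.95 in wild-type ovaries 1 to 3. Every knockout lay above every wild type, by a gap of 0.35 between the nearest ovaries. The range was 0.19 within the knockout and 0.27 within wild type. Cry1 had stood out in this same comparison, so this separation follows from the choice of the gene and is only a description. The means were -4.42 ± 0.11 in the knockout and -5.00 ± 0.14 in wild type (SD, n = 3 each), a log2 difference of 0.58 (SE 0.12), or 1.50-fold. The probe was dim. Its processed signal was 70.6, 73.3 and 80.8 units in the knockouts, with spot errors from the scanner software of 8.77, 9.43 and 8.87 units. In wild type it was 59.4, 44.3 and 42.2 units, with spot errors of 7.62, 6.61 and 7.68 units. The lowest signal that counted as well above background was between 17.6 and 29.0 units on knockout arrays and between 23.2 and 25.1 units on wild-type arrays. With another background correction, normexp with an offset of 50 units, the Cry1 difference was 0.26 and the genotypes overlapped. An offset of this size, added before the log, shrinks the log2 differences of probes as dim as this one. How much of the change came from the offset was not tested.

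Cry2, the paralog of Cry1, pointed the same way on both of its probes. The brighter probe was at 1.80, 1.68 and 1.48 in knockout ovaries 1 to 3, against 1.19, 1.07 and 1.09 in wild-type ovaries 1 to 3. All knockouts were higher, the wild types lay within 0.12 of each other, and the means were 1.66 ± 0.16 in the knockout and 1.12 ± 0.06 in wild type (SD, n = 3 each). The log2 difference was 0.54 (SE 0.12), or 1.45-fold (limma unadjusted p = 0.00365, adjusted p = 1.00). The dimmer probe, assigned by the files to another Cry2 transcript, was at -2.31, -2.33 and -2.50 in the knockouts, against -2.59, -2.73 and -2.63 in wild type. It did not overlap either, but its difference was smaller, 0.27 (SE 0.11, limma unadjusted p = 0.0428), and with normexp the genotypes overlapped on this probe. With normexp the brighter probe still did not overlap, at a difference of 0.59.

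Per1, the period gene that also answers rapidly to cAMP and glucocorticoid signals, was the third gene higher in all knockouts. It was at 1.80, 1.80 and 1.62 in knockout ovaries 1 to 3, against 1.39, 1.13 and 1.15 in wild-type ovaries 1 to 3. The nearest knockout and wild type were 0.23 apart, and the means were 1.74 ± 0.10 in the knockout and 1.22 ± 0.15 in wild type (SD, n = 3 each). The log2 difference was 0.52 (SE 0.12), or 1.43-fold (limma unadjusted p = 0.00465, adjusted p = 1.00). It ran from 0.47 to 0.62 over 17 alternative analyses. Among immediate early genes, Nr4a1, Nr4a2 and Sik1 did not overlap on the probe that stood for each gene, and were higher in all 3 knockouts. Their log2 differences were 1.71, 0.68 and 1.38, but the dimmer Nr4a2 probe overlapped, at 0.56. Over all probes tested, 3.94% had all knockouts above all wild types. Of the 14 immediate early genes tested, 11 had a higher and 3 a lower mean in the knockout, with a median difference of 0.38 beside -0.017 over all genes, and 0 passed the limma threshold (3 at an unadjusted p under 0.05). Relative to each gene's mean, the median of the 14 was 0.85, -0.34 and -0.11 in knockout ovaries 1 to 3, and -0.23, -0.16 and -0.40 in wild-type ovaries 1 to 3. The part of these genes in the Per1 difference was not tested.

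Per2 and Per3, the other period genes, had higher means in the knockout but overlapped. Per3 was at -4.70, -4.63 and -4.34 in knockout ovaries 1 to 3, against -4.65, -5.04 and -5.06 in wild-type ovaries 1 to 3, so that only wild-type ovary 1 reached into the knockout range. Its log2 difference was 0.36 (SE 0.17, limma unadjusted p = 0.0685), and 0.12 with normexp. Per2 was at -3.83, -4.27 and -4.18 in the knockouts, against -3.62, -4.47 and -4.83 in wild type. The highest and the lowest Per2 values were both wild type, 1.21 apart, which is the widest range of any clock probe within a genotype. The Per2 difference of 0.21 (SE 0.32) was -0.054 without wild-type ovary 3 and 0.73 within slide 2. That of Per3 was 0.51 within slide 2.

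The activators were lower in the knockout mean. Clock, a histone acetyltransferase and the partner of ARNTL, was at -1.37, -1.32 and -1.52 in knockout ovaries 1 to 3, against -1.12, -1.16 and -0.84 in wild-type ovaries 1 to 3. All knockouts were lower, and the means were -1.40 ± 0.10 in the knockout and -1.04 ± 0.18 in wild type (SD, n = 3 each), a log2 difference of -0.36 (SE 0.13, limma unadjusted p = 0.0296, adjusted p = 1.00). Arntl was at -0.63, -1.24 and -1.09 in the knockouts, against -0.78, -0.95 and -0.01 in wild type. Knockout ovary 1 was above wild-type ovaries 1 and 2, and wild-type ovary 3 stood well above all others. The Arntl difference was -0.40 (SE 0.29, limma unadjusted p = 0.204). Without wild-type ovary 3 the Arntl difference was -0.12 and the Clock difference -0.26. Within slide 2, where that ovary is the only wild type, they were -0.97 and -0.56.

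Nr1d1, a heme-binding repressor of Arntl, was at -1.19, -1.58 and -1.40 in knockout ovaries 1 to 3, against -1.02, -1.14 and -0.48 in wild-type ovaries 1 to 3. The genotypes did not overlap, but knockout ovary 1 and wild-type ovary 2 were only 0.043 apart. The log2 difference was -0.51 (SE 0.21), or 1.42-fold lower in the knockout (limma unadjusted p = 0.0466, adjusted p = 1.00), -0.31 without wild-type ovary 3 and -0.91 within slide 2. Its close relative Nr1d2 was at -0.68, -0.59 and -0.77 in the knockouts, against -0.66, -0.82 and -0.73 in wild type. Nr1d2 overlapped throughout and had the smallest spread of the 10 genes over the 6 ovaries, with a difference of 0.056 (SE 0.11).

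Dbp, an activator of D-box genes whose transcript is among the strongest daily outputs of the clock, overlapped on both probes. On the brighter probe it was at 3.56, 3.65 and 2.81 in knockout ovaries 1 to 3, against 3.54, 3.43 and 3.72 in wild-type ovaries 1 to 3. Knockout ovary 3 stood below the rest, while knockout ovaries 1 and 2 lay within the wild-type range. The difference was -0.22 (SE 0.24, limma unadjusted p = 0.387), and 0.043 without knockout ovary 3. The dimmer probe gave 3.46, 3.47 and 2.83 in the knockouts, against 3.34, 3.26 and 3.49 in wild type, a difference of -0.11 (SE 0.20). It was 0.10 without knockout ovary 3.

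**Figure D2:**
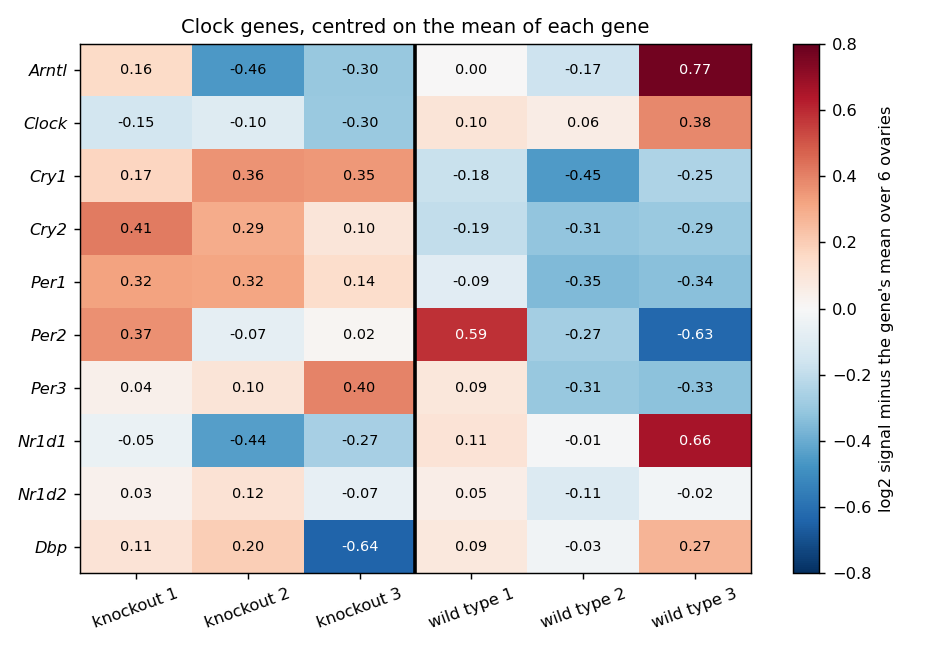
Log2 signal of each clock gene minus its mean over the 6 ovaries, for knockout ovaries 1 to 3 and then wild-type ovaries 1 to 3. Cry1, Cry2 and Per1 were above their mean in the 3 knockouts and below it in the 3 wild types, and Arntl and Nr1d1 were both highest in wild-type ovary 3, at 0.77 and 0.66.

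The members were then set side by side by their role in the loop, to see whether Cry1 went with a common shift of the others. The mean of the 6 feedback targets (Per1, Per2, Per3, Nr1d1, Nr1d2 and Dbp) minus the mean of Arntl and Clock was 0.16, 0.35 and 0.26 in knockout ovaries 1 to 3. In wild-type ovaries 1 to 3 it was 0.12, -0.097 and -0.61. The genotypes did not overlap, although knockout ovary 1 and wild-type ovary 1 were close, and the means were 0.25 ± 0.093 in the knockout and -0.20 ± 0.37 in wild type (SD, n = 3 each). This was a difference of 0.45, made up of -0.38 in the activators and 0.069 in the targets, each of which overlapped. Within slide 2 alone it was 0.87, and without wild-type ovary 3 it was 0.24. Knockout ovary 2 was the highest and knockout ovary 1 the lowest knockout on both measures, although Cry1 was nearly equal in knockout ovaries 2 and 3. Wild-type ovary 1 was the highest wild type on both. Wild-type ovary 3 had the lowest targets minus activators, while wild-type ovary 2 had the lowest Cry1 (-5.16, against -4.95 in ovary 3). The Cry1 spot errors of wild-type ovaries 2 and 3 were 14.9% and 18.2% of the signal, so the Cry1 order of these ovaries is uncertain.

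**Figure D3:**
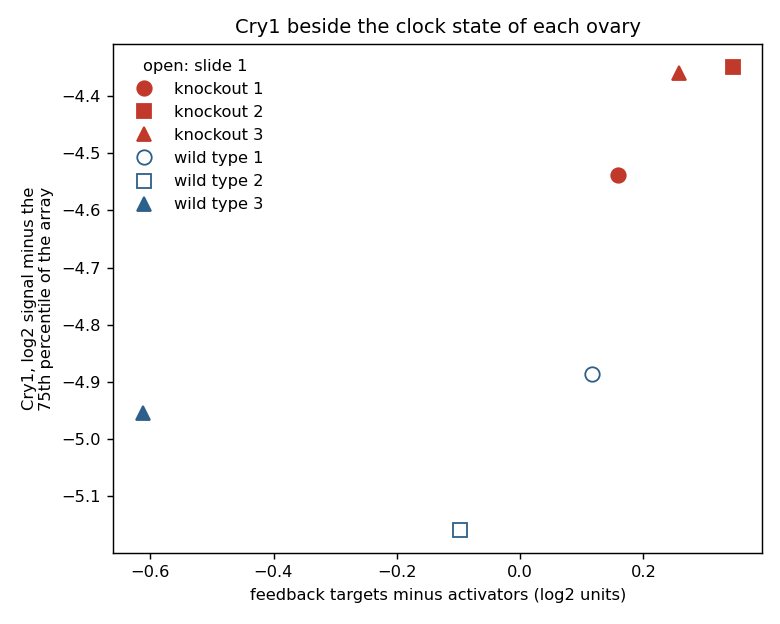
Cry1 log2 signal (vertical axis) against the mean of the 6 feedback targets minus the mean of Arntl and Clock (horizontal axis, log2 units), 1 point for each ovary, with open symbols for slide 1. The 3 knockouts lie at the upper right, and wild-type ovary 3 lies far to the left of the others at -0.61 with a Cry1 value of -4.95.

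Some genes that peak near each other in the day shared a direction and others did not. Per1, Per2 and Per3 all had higher means in the knockout (0.52, 0.21 and 0.36), although Per2 turned to -0.054 without wild-type ovary 3. Nr1d1 and Dbp, both of the light phase, had lower ones (-0.51 and -0.22). Arntl and Cry1, neighbours late in the night and at dawn, had differences of opposite sign (-0.40 and 0.58). Arntl overlapped, however, and its difference was -0.12 without wild-type ovary 3. Per1 and Dbp, neighbours late in the light phase, also had opposite signs (0.52 and -0.22). Without knockout ovary 3 the Dbp difference turned to 0.043 and, on its dimmer probe, to 0.10. Arntl and Nr1d1, which peak far apart in the day, were both lower in the knockout mean, and both were highest in wild-type ovary 3 and lowest in knockout ovary 2. Nr1d1 and Nr1d2, which peak close together, differed by -0.51 and 0.056. Each ovary gives a single moment, so neither shared nor opposite signs show a phase. Whether the clock phase differed between genotypes was not tested.

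Other genes of the clock gave few separations. Of 11 partner genes in the wider loop, 10 were bright enough to test, 5 with a higher and 5 with a lower mean in the knockout, 0 past the limma threshold and 0 at an unadjusted p under 0.05, with a median difference of -0.0079. The ROR receptor gene Rora, an activator of Arntl, followed Arntl in standing highest in wild-type ovary 3, at -1.06, -2.05 and -1.99 in knockout ovaries 1 to 3, against -1.91, -1.62 and 0.13 in wild-type ovaries 1 to 3. Its difference was -0.57 (SE 0.57). Bhlhe41, a repressor at E-boxes, was at -4.53, -4.68 and -4.51 in the knockouts, against -4.88, -4.71 and -5.58 in wild type. It was well above background on 2 of the 3 wild-type arrays. The genotypes did not overlap, by a gap of 0.032, at a difference of 0.49 (SE 0.23, limma unadjusted p = 0.0792). The dimmer Bhlhe41 probe, well above background on all 6 arrays, overlapped at 0.18. Bhlhe40, a relative of Bhlhe41, differed by 0.23 and overlapped, as did Ciart at 0.49. The D-box factors Tef, at 0.22, and Hlf, at -0.24, had opposite signs, and the D-box repressor Nfil3 was at -0.088. Npas2, which can take the place of Clock, was well above background on 1 knockout and 1 wild-type array and was not tested.

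**Figure D4:**
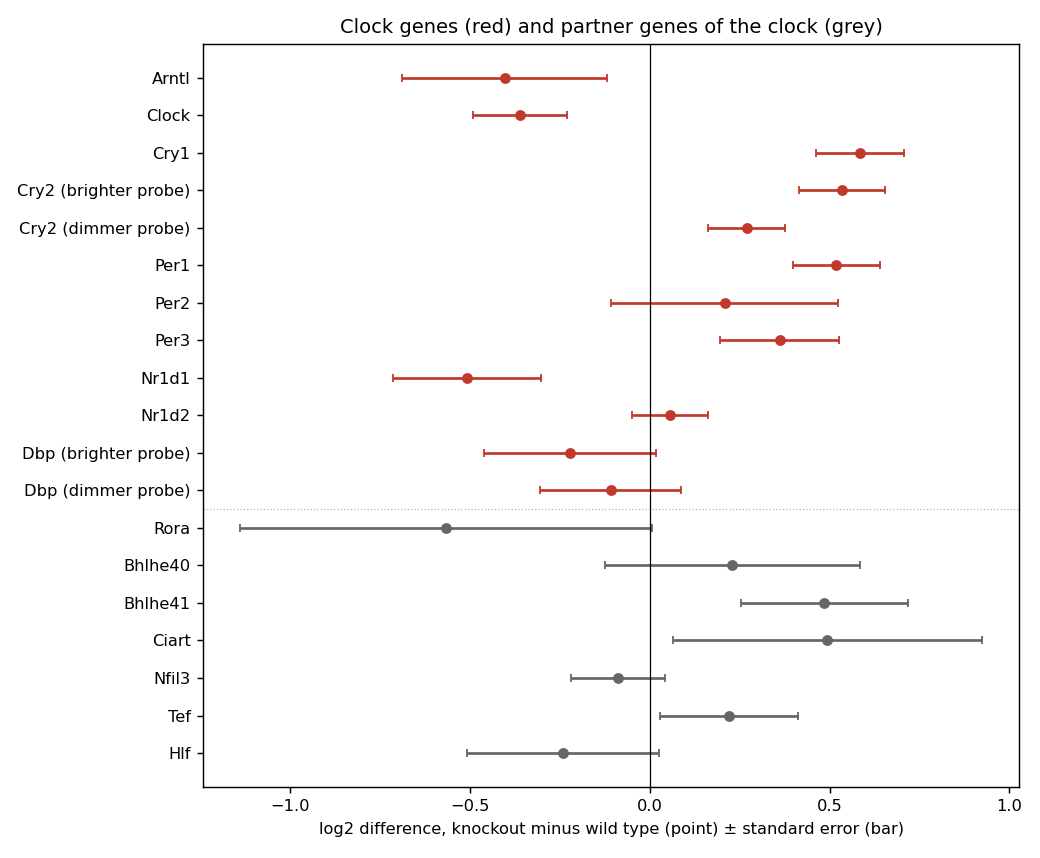
Log2 difference, knockout minus wild type, with its standard error, for the 12 clock probes (red) and for the 7 partner genes named in the text (grey). The Cry1, Cry2 and Per1 points lie between 0.27 and 0.58, and Nr1d1, Arntl and Clock between -0.51 and -0.36.

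The 13 genes that control the stability or activity of clock proteins had a median difference of -0.030, with 5 higher, 8 lower, 0 past the limma threshold and 0 at an unadjusted p under 0.05. The casein kinases Csnk1d and Csnk1e, which phosphorylate PER proteins, differed by -0.086 and -0.030. Prkaa1, a catalytic subunit of AMP-activated kinase, did not overlap but differed by only -0.082 (limma unadjusted p = 0.411). It was the 1 gene of the 13 without overlap. Over all probes tested, 3.94% had all knockouts above all wild types and 4.64% had all knockouts below. Among 10 rhythmic outputs the median was -0.093, with 0 past the limma threshold and 0 at an unadjusted p under 0.05 on the probe that stood for each gene. Nampt, an enzyme of NAD synthesis driven by the clock in mouse liver, did not overlap and differed by -0.19 (limma unadjusted p = 0.133). It was the 1 gene of these 10 without overlap on the probe that stood for it. Lonrf3 did not overlap on its dimmer probe, at -0.47, but did on its brighter one, at -0.30.

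Of 11 glucocorticoid-responsive genes, 3 had a higher and 8 a lower mean in the knockout, with a median difference of -0.12 and 0 past the limma threshold. The count includes Per1, the 1 gene of the list at an unadjusted p under 0.05. The list median, relative to each gene's mean, was 0.32, -0.57 and 0.047 in knockout ovaries 1 to 3, and -0.077, -0.050 and 0.18 in wild-type ovaries 1 to 3. The part of these genes in the clock gene values was not tested.

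Markers of other cell types also differed between ovaries, and in RNA from whole tissue fewer cells of a type and less RNA per cell cannot be told apart. The summed signal of 6 corpus luteum markers, all well above background on all arrays, in multiples of the 75th percentile, was 172, 20.0 and 125 in knockout ovaries 1 to 3, against 104, 100 and 159 in wild-type ovaries 1 to 3. Knockout ovary 2, with the lowest luteal sum, also had the lowest Arntl and Nr1d1. Without knockout ovary 2 the Arntl and Nr1d1 differences were -0.28 and -0.41, the Cry1 difference was 0.55 and the Per1 difference was 0.49. The 3 blood markers, well above background on all arrays, summed to 8.26 to 36.8 in the knockouts, highest in ovary 2, and to 4.55 to 8.62 in wild type. Of 5 oviduct markers, 3 were well above background on all arrays, and the 5 summed to 0.26 to 0.83 in the knockouts, against 0.57 to 29.4 in wild type, where ovary 2 held the high value. Of 5 adipocyte markers, 2 were well above background on all arrays and Lep on none, and the 5 summed to 1.05 to 1.84 in the knockouts, against 1.04 to 7.78 in wild type, highest in ovary 1. The 3 of 5 theca and interstitial markers with a value on every array summed to 12.6 to 26.7 in the knockouts, against 14.5 to 22.1 in wild type. The 5 smooth muscle markers, all with a lower mean in the knockout, summed to 19.6 to 30.0 in the knockouts, against 26.2 to 33.7 in wild type, and Myh11, a myosin of smooth muscle, was lower in all 3 knockouts, at a log2 difference of -0.41 (SE 0.16). The 4 macrophage markers summed to 5.29 to 9.13 in the knockouts, against 6.39 to 7.55 in wild type. Of these, 3 had a higher mean in the knockout, and the median difference of the 4 was 0.094. Cd68, a lysosomal protein of macrophages, was the only one without overlap, higher in all 3 knockouts at 0.76 (SE 0.23). On the probe that stood for each gene, Csf1r differed by -0.029, Lyz2 by 0.057 and Adgre1 by 0.13. All 7 oocyte markers had a lower mean in the knockout and summed to 23.6 to 43.3 in the knockouts, against 23.8 to 44.2 in wild type. The 7 granulosa markers summed to 154 to 223 in the knockouts, against 136 to 194 in wild type, and 5 of them had a higher mean in the knockout. Against that direction, Foxl2 was lower in all 3 knockouts on its brighter probe, at -0.19 (SE 0.10, limma unadjusted p = 0.119), while its dimmer probe overlapped. Myh11, Cd68 and Foxl2 were picked from the marker lists after their values were seen. Over all probes tested, 3.94% had all knockouts above all wild types and 4.64% had all knockouts below. The part of these cell types in the clock gene differences was not tested. Without wild-type ovary 1 the Cry1 difference was 0.64, and without wild-type ovary 2 it was 0.50.

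Genes whose 6 values, centred on their own mean, ran closest to those of a clock gene were listed for Cry1, Arntl and Dbp among 14385 named genes. For Cry1 the closest was Trim62, with a root mean square difference of 0.066 log2 units where the values of Cry1 itself spread by 0.31 around their mean. Ggt7, Iigp1, Leng8 and Irx3 came next, at 0.10 to 0.12. For Arntl the closest were Med10 at 0.062, then Ccdc126, Lpcat3, Eif4g3 and Stx1a, at 0.077 to 0.10, against a spread of 0.40 for Arntl. For Dbp they were Aldh1b1, Casp6, Kcnn2, Acad8 and Lims2, at 0.10 to 0.11, against a spread of 0.30. No clock gene was among the 5 closest to any of the 3. With 5 places among 14385 genes, this does not show whether clock genes moved together. The distance also grows where genes move together by unlike amounts.

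**Figure D5:**
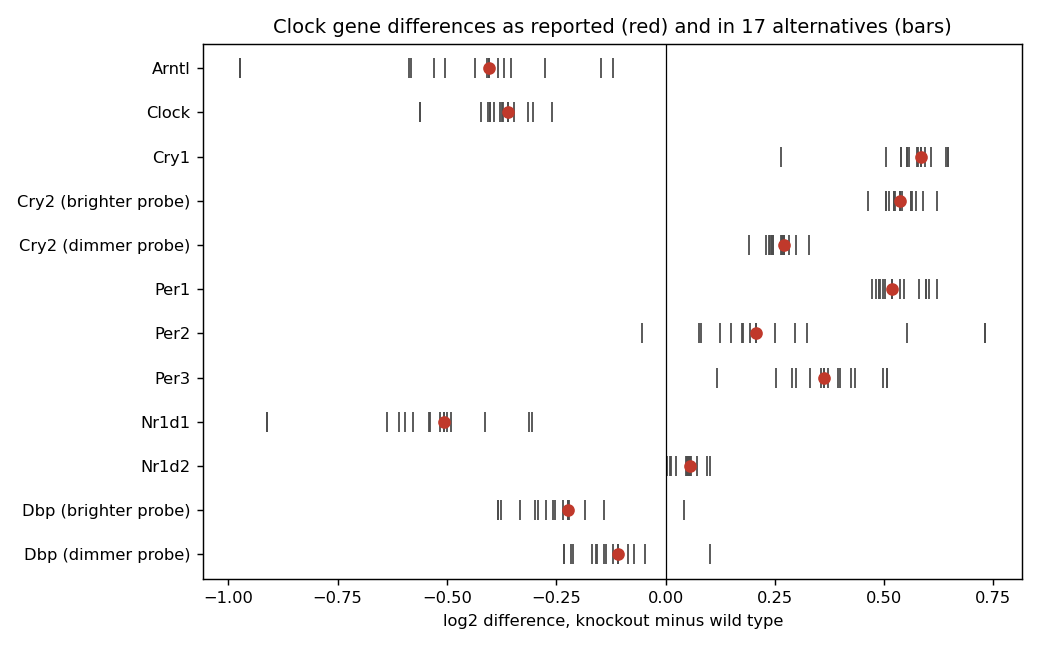
Log2 difference, knockout minus wild type, of each clock probe as reported (red point) and in 17 alternative analyses (vertical ticks). Both Cry2 probes, Per1, Cry1 and Per3 stayed above 0 and Clock, Nr1d1 and Arntl below 0 in all of them, while Per2 and both Dbp probes crossed 0 in 1 alternative each.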

How the data were processed

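Ovary RNA samples, 3 labelled SeBP1 knockout and 3 wild type, were read on 6 single-colour arrays, grouped by the genotype in the labels. The deposited scanner files hold spot intensity from Agilent Feature Extraction 10.7.1.1, background-subtracted and detrended within each array, with probe coordinates on mm9, per the file headers. A deposited series table holds intensity too. Its columns share 1 median (119.8) and follow the scanner values (Spearman correlation at least 0.9999 across probes), its scale is linear, and its normalization is not stated in the labels.

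Outlier spots, 192 to 459 of 43020 per array, were left out and spots of a probe averaged. Values are log2 of the processed signal minus the 75th percentile of the array. The 24415 of 39429 probes that were well above background throughout either genotype were compared with limma 3.58.1 in R 4.3.3, two-sided, with genotype as the only term and Benjamini-Hochberg adjustment over all of them. Members were matched by the gene name in the files, and the brightest probe stands for a gene in counts and lists. The code was tested on simulated data. With 3 arrays a genotype, their number limits the precision.

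The members and lists were chosen with earlier results of these data known. Named genes were all members with every probe, preset partner and turnover genes, members of the turnover, output, glucocorticoid and immediate early lists that were well above background on 6 arrays and did not overlap, Selenbp1, and the 5 genes closest to Cry1, Arntl and Dbp by root mean square difference. Myh11, Cd68 and Foxl2 were named from the cell type marker lists after their values were seen. Alternatives changed background correction, scaling, source, filter, slide, replicate block, array weights and the arrays left out. Some genes of these lists, though counted in them, are not reported here by name. Promoter windows came from RefSeq. Tables and plots used Python 3.11.15, numpy 2.4.6, pandas 2.3.3 and matplotlib 3.10.9.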

Additional observations from a re-analysis of the deposited data

How the results depend on the processing

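None of the 9 genes besides Cry1 passed the limma threshold in any of the 17 alternatives. At an unadjusted limma p under 0.05, a count added after the data were seen, stood 2 to 5 of these 9 genes, against 4 as reported. The slide with both genotypes alone is left out of this range, as its only wild type is replicate 3. The share of all probes at that p moved too, and ran from 2.53% to 10.8%. Of the 12 clock probes, 9 kept their sign in every alternative. Leaving out 1 array at a time, Per2 ran from -0.054 (without wild-type replicate 3) to 0.55, and the brighter and dimmer Dbp probes from -0.38 and -0.22 to 0.043 and 0.10 (both without knockout replicate 3). The median difference of the clock genes was 0.28 with slide as a fixed block and on the slide with both genotypes alone, and ran from 0.0023 (without wild-type replicate 3) to 0.30 over arrays left out. The feedback targets minus activators differed by 0.87 in the same 2 slide settings, which set the knockouts against wild-type replicate 3 only, and by 0.24 to 0.61 over arrays left out. Over all probes the count of genes called, 1 as reported (Selenbp1), was 0 with no filter on background, with slide as a fixed block, on the slide with both genotypes alone and with the replicate block. Over arrays left out the count ran from 0 to 19, the highest without wild-type replicate 3, and the cause was not tested. Replicate numbers here are the order of the samples within each genotype, and the labels state no pairing. Same-numbered deviations correlated at -0.34, 0.32 and -0.050 across probes, and unlike-numbered ones from -0.30 to 0.37, which cannot exclude a pairing. With the replicate block 0 clock genes were called. With normexp the Cry1, Per3 and Per2 differences, all on dim probes, where the offset shrinks log2 differences, were 0.26, 0.12 and 0.081.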
